A study of Rattus norvegicus with 26 samples.

Results

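The 10 genes described here mark astrocytes, and their transcripts were measured in the hippocampus of ageing rats fed different amounts of vitamin D3. The set holds the filament genes Gfap and Vim, the water channel gene Aqp4, the connexin genes Gja1 and Gjb6, the glutamate transporter genes Slc1a2 and Slc1a3, the enzyme genes Aldh1l1 and Aldoc, and the calcium-binding protein gene S100b. They are 10 of the 14506 genes with at least 1 probe set annotated to a single gene symbol, and 10 of the 8485 genes that were tested. All 10 had exactly 1 such probe set, and all 10 passed the intensity filter, a mean of at least 6.94 on the log2 scale. The rats were male F344 rats aged 18 months, kept for 5 to 6 months on a purified AIN-93G diet with 100 (low), 1000 (control) or 10000 (high) IU of vitamin D3 per kg. Hippocampal RNA of 8 low, 9 control and 9 high rats was measured on Affymetrix Rat Gene 1.0 ST arrays, with 1 array for each rat. The rats carried no transgene, and each tissue block held all cell types of the hippocampus.

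Astrocytes are the glial cells that take up transmitter glutamate, buffer potassium and water, link into networks through gap junctions and wrap blood vessels with their endfeet. In the ageing or injured hippocampus they can enlarge and make more intermediate filament, a state known as reactive, of which GFAP is the usual marker. Vitamin D3 is the precursor of the hormone that acts through the vitamin D receptor, a nuclear receptor. In bulk tissue, fewer astrocytes and less of a transcript per astrocyte cannot be told apart, and neurons, oligodendrocytes or vessel cells also make some of these transcripts, as endothelial cells do with vimentin.

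The arrays were alike in level, with array medians between 6.92 and 6.96 and a mean correlation of each array with the others between 0.9965 and 0.9977. The array quality weights that limma estimated ran between 0.474 and 1.64. The hippocampal markers Prox1, Wfs1, Zbtb20, Fibcd1 and Neurod2 lay above the filter. Of the 14 hippocampal markers listed, 10 were measured and 8 passed the filter. The means of the 10 astrocyte genes over all rats lay between 7.46 for Aldh1l1 and 13.6 for Slc1a2 on the log2 intensity scale; different probe sets bind differently, so these means do not rank the genes. The rats were housed in pairs. Read from the array descriptions, the rats came from 14 cages, and in 12 of these both mates were on arrays; tests that treat rats as independent ignore this.

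The promoters of Gfap and Vim are shown because these 2 genes had the widest spread between rats for their level, given further on. Each stretch holds the 250 bases before a RefSeq start site in assembly GRCr8, 5′ to 3′ on the strand of the gene. Gfap lies on the minus strand (chr10:88361662-88361911) and Vim on the plus strand (chr17:81577011-81577260). Capitals mark a match to one of 4 motifs.
Gfap: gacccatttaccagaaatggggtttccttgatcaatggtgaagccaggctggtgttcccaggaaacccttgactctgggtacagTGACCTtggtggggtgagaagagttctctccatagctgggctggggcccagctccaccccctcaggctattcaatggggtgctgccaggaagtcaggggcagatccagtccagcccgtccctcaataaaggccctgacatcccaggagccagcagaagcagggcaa
Vim: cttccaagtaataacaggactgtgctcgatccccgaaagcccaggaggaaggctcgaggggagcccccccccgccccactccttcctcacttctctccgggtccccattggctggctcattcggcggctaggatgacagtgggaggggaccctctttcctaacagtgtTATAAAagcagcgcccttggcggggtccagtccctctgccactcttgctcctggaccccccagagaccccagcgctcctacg
The motifs, searched on both strands, were AGGTCA (the half-site of many nuclear receptors), TTCNNNGAA (STAT factors), TGAGTCA (AP-1) and TATAAA (the box of the core promoter). The Gfap match is the half-site on the other strand, beginning 166 bases before the start site. The Vim match is the letters TATAAA, beginning 82 bases before the start site. Among all 15 start sites that the table holds for the 10 genes, 1 further match was found, an AP-1 motif 58 bases before the start of Gja1. Of 33469 rat promoter windows of this length, 14.1% held the half-site, 7.67% the STAT motif, 4.05% the AP-1 motif and 12.9% TATAAA. Of the 15 windows of the 10 genes, 1 held the half-site, 1 the AP-1 motif, 1 TATAAA and 0 the STAT motif. Windows of the same gene can overlap, as those of Slc1a3 do. A match of letters is a description and does not show binding.

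The first question was whether astrocyte genes differed between the diets. None of the 10 was called by the moderated F-test over the 3 diets at an adjusted p under 0.17, the stricter false discovery rate of the study's design, and percent called over all 8485 tested genes was 0 as well. At an unadjusted p under 0.05 the F-test took 4.62% of all tested genes and 0 of the 10 astrocyte genes. Between high and low, 0 of the 10 and 0% of all tested genes were called. At an unadjusted p under 0.05 this contrast took 0 of the 10 astrocyte genes and 7.22% of all tested genes, 4.5% higher and 2.72% lower in high rats. Between high and control the counts were 0 of 10 called, against 0%, and 1 of 10 at the unadjusted threshold, a lower one, against 4.63% (2.18% higher and 2.45% lower). Between low and control they were again 0 of 10, against 0%, and 1 of 10 at the unadjusted threshold, a lower one, against 2.27% (0.66% higher and 1.61% lower). The genes behind these single counts were Gja1 and Aldh1l1.

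**Figure D1:**
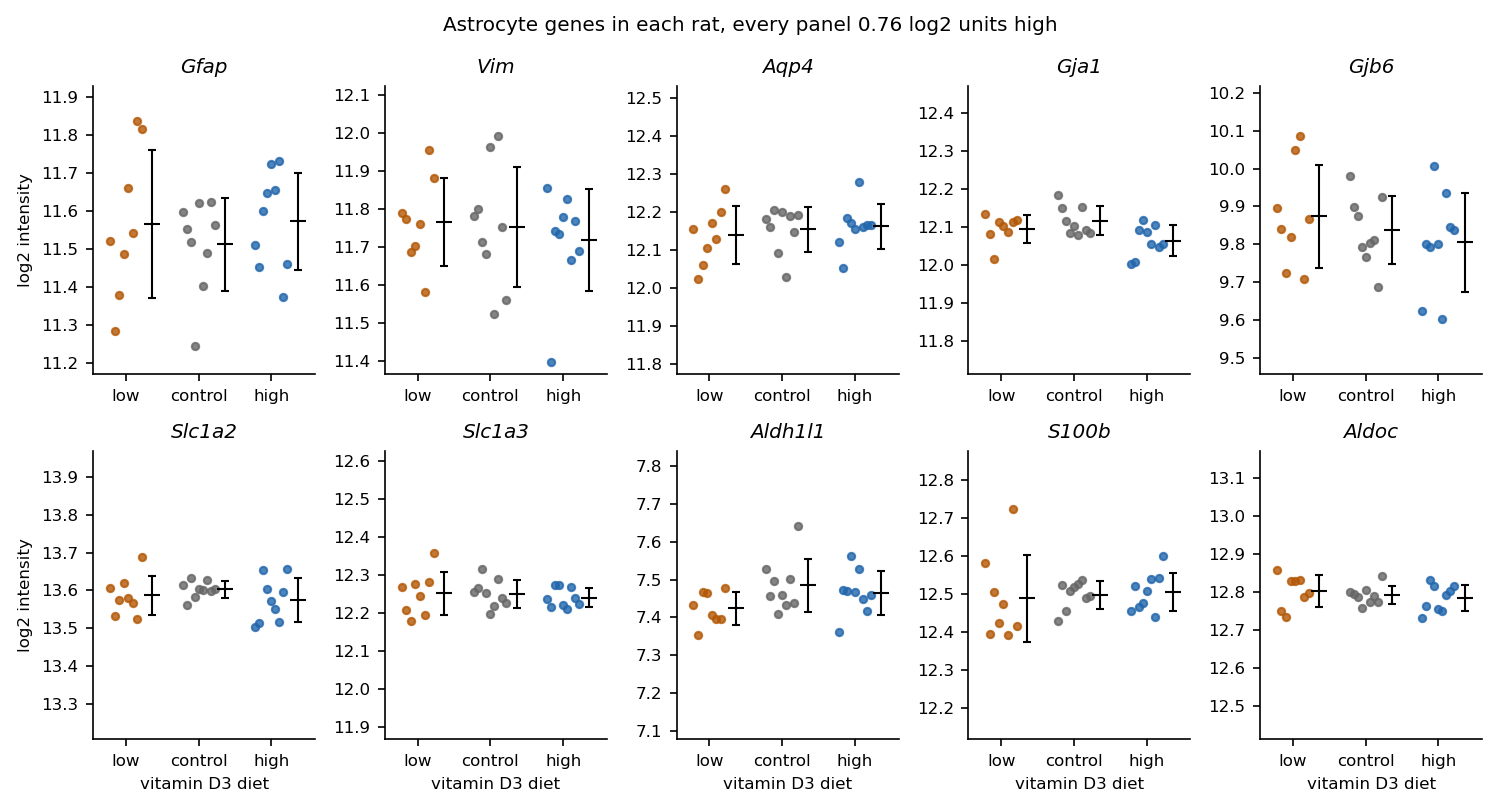
Log2 intensity of the 10 astrocyte genes (vertical axis) in each of 26 rats, by vitamin D3 diet (horizontal axis), with the diet mean and SD in black beside the points; all panels span the same 0.76 log2 units. The diets overlap in all 10 genes, and Gfap, Vim and Gjb6 spread much more widely than Gja1, Slc1a3 or Aldoc.

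The intermediate filament genes come first, since they are the usual measure of reactive astrocytes. Gfap, the main filament protein of astrocytes, had a lowest, median and highest log2 intensity of 11.28, 11.53 and 11.84 in low rats, 11.24, 11.55 and 11.62 in control rats, and 11.37, 11.60 and 11.73 in high rats. Of the 9 high rats 4 and of the 8 low rats 3 lay above every control rat, while the lowest Gfap of all 26 rats was that of control rat 12. The high rats averaged 11.57 ± 0.13 (SD, n = 9) and the low rats 11.57 ± 0.20 (SD, n = 8), a difference of 0.0071 on the log2 scale with an SE of 0.068. With array quality weights this difference was 0.063, and without low rat 2 it was -0.033, all smaller than the SD between rats. The 95% interval of the high over low ratio ran between 0.913 and 1.11. Against the control mean of 11.51 ± 0.12 (SD, n = 9) the high diet stood 0.06 higher (95% interval -0.075 to 0.20, adjusted p = 0.9997), and the low diet 0.053 higher (-0.086 to 0.19, adjusted p = 0.9997). Both of these differences were smaller than the SD between rats of one diet, 0.15.

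Vimentin (Vim), the filament protein of immature and reactive astrocytes and of vessel cells, had a lowest, median and highest value of 11.58, 11.77 and 11.96 in low rats, 11.52, 11.75 and 11.99 in control rats, and 11.40, 11.74 and 11.86 in high rats. The ranges overlapped almost wholly, apart from high rat 19, which lay below all 25 other rats. High minus low was -0.049 with an SE of 0.063 (adjusted p = 0.897), and high minus control was -0.035 with an SE of 0.061 (adjusted p = 0.9997). Without high rat 19 these were -0.0087 and 0.0052, so the sign of Vim against control rests on that rat.

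Aquaporin-4 (Aqp4), the water channel of astrocyte endfeet, varied less. Its lowest, median and highest values were 12.02, 12.14 and 12.26 in low rats, 12.03, 12.18 and 12.20 in control rats, and 12.05, 12.16 and 12.28 in high rats. One high rat and 1 low rat exceeded all controls. The differences were 0.024 for high minus low (SE 0.032, adjusted p = 0.906), 0.0069 for high minus control (SE 0.031) and -0.017 for low minus control (SE 0.032). The interval of the high over low ratio ran between 0.971 and 1.06.

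Connexin 43 (Gja1) and connexin 30 (Gjb6) form the gap junctions of astrocytes. Gja1 had a lowest, median and highest value of 12.01, 12.11 and 12.14 in low rats, 12.08, 12.10 and 12.18 in control rats, and 12.00, 12.06 and 12.12 in high rats. Of the 9 high rats 8 lay below the control mean and 5 below every control rat, but the ranges overlapped. The high mean was 12.06 ± 0.040 and the control mean 12.12 ± 0.038 (SD, n = 9 each), a difference of -0.053 with an SE of 0.021, or a ratio of 0.964 (95% interval 0.935 to 0.994). This was the largest difference among the 10 genes relative to its own error. Its unadjusted p was 0.02 by limma's moderated test, and the adjusted p over all tested genes was 0.9997, so it was not called. High minus low for Gja1 was -0.032 (SE 0.022, adjusted p = 0.785) and low minus control -0.021 (SE 0.022).

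Gjb6 spread more than its partner. Its lowest, median and highest values were 9.71, 9.85 and 10.09 in low rats, 9.69, 9.81 and 9.98 in control rats, and 9.60, 9.80 and 10.01 in high rats. Of the high rats 2 lay below every low rat and every control rat and 1 lay above every control rat, as did 2 low rats. High minus low was -0.069 with an SE of 0.055 (adjusted p = 0.822). Leaving out 1 rat at a time moved it between -0.094 (without high rat 21) and -0.039 (without low rat 6). The interval of the ratio ran between 0.882 and 1.03.

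The transporters GLT-1 (Slc1a2) and GLAST (Slc1a3) remove glutamate from the synapse. Slc1a2 had a lowest, median and highest value of 13.52, 13.58 and 13.69 in low rats, 13.56, 13.60 and 13.63 in control rats, and 13.50, 13.57 and 13.66 in high rats. The control rats were the most alike, with an SD of 0.052 in low, 0.022 in control and 0.058 in high rats, and 4 high rats lay below and 2 above every control rat. High minus control was -0.028 (SE 0.024) and high minus low -0.012 (SE 0.025). Slc1a3 gave 12.18, 12.26 and 12.36 in low rats, 12.20, 12.25 and 12.32 in control rats, and 12.21, 12.24 and 12.27 in high rats. Here the high rats were the most alike, with an SD of 0.058 in low, 0.037 in control and 0.026 in high rats, and all 9 lay inside the range of both other diets. High minus low was -0.011 (SE 0.023), with a ratio interval of 0.96 to 1.03.

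Aldh1l1, a folate enzyme widely used to mark astrocytes, had a lowest, median and highest value of 7.35, 7.42 and 7.48 in low rats, 7.41, 7.46 and 7.64 in control rats, and 7.36, 7.47 and 7.56 in high rats. All 8 low rats lay below the control mean and 4 of them below every control rat, while control rat 17 stood above all others. Low averaged 7.42 ± 0.043 (SD, n = 8) and control 7.48 ± 0.070 (SD, n = 9), a difference of -0.061 with an SE of 0.030 (95% interval -0.12 to -0.00076). The unadjusted p of the moderated test was 0.047 and the adjusted p 0.9997, so this difference was not called either. Without control rat 17 it was -0.042. Aldh1l1 had the lowest intensity of the 10 and sat nearest to the filter.

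Aldolase C (Aldoc), the brain form of the glycolytic aldolase, spanned only 12.73 to 12.86 over all 26 rats, a 1.09-fold range. Its differences were -0.018 for high minus low (SE 0.021), -0.0074 for high minus control and 0.011 for low minus control. The calcium-binding protein S100b had a lowest, median and highest value of 12.39, 12.45 and 12.72 in low rats, 12.43, 12.51 and 12.54 in control rats, and 12.44, 12.51 and 12.60 in high rats. The low rats held both the highest value, that of rat 7, and 4 values below every control rat. High minus low was 0.016 (SE 0.035), and 0.050 without low rat 7.

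**Figure D2:**
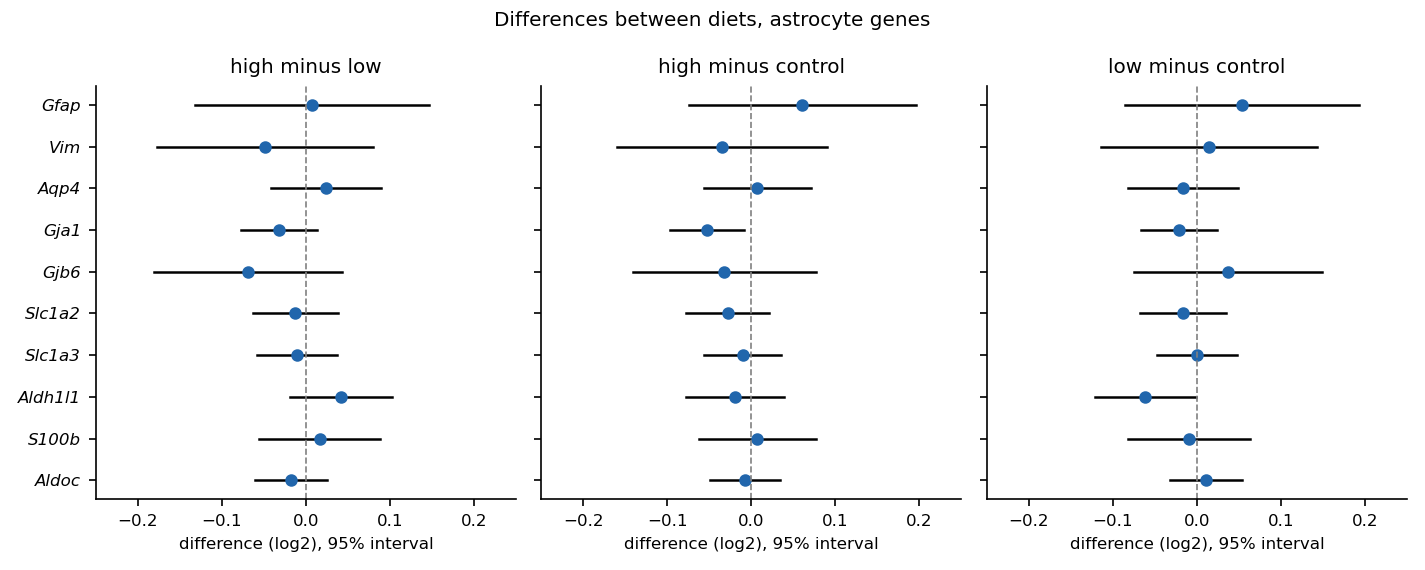
Difference in log2 intensity between diets (horizontal axis) for the 10 astrocyte genes (vertical axis), with 95% intervals of the moderated fit as bars. All intervals of high minus low cross 0; only Gja1 in high minus control and Aldh1l1 in low minus control do not, and neither passed adjustment.

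Set side by side, the 10 genes showed no common direction. High minus low was positive in 4 and negative in 6, against 55.2% positive and 44.8% negative over all tested genes, with a median of -0.012 against 0.0053 over all tested genes. High minus control was positive in 3 and negative in 7, against 50.6% and 49.4%, with a median of -0.015 against 0.0004. Low minus control was positive in 5 and negative in 5, against 44.1% and 55.9%, with a median of -0.0043 against -0.0043. Any 2 of these contrasts share the rats of 1 diet, so they are not independent of each other. A straight line over the logarithm of the dose also called 0 of the 10 genes, with adjusted p values between 0.769 for Gja1 and 0.982 for Gfap. For high over low no interval of the 10 genes reached below 0.882 or above 1.11. Against control the Gfap interval reached up to 1.14 for the high diet and 1.14 for the low diet. Each interval is for a single gene, was not adjusted for the number of genes and treats cage mates as independent. The intervals therefore do not jointly bound what the arrays could have missed, and they concern ratios of array intensity only.

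Other genes of astrocyte biology were read from lists, and 0 genes of any list below were called in any contrast. Of 22 reactive astrocyte genes 20 were measured, and 6 of these passed the intensity filter and were tested. Of the 6, 5 had a lower and 1 a higher mean in high than in low rats (median -0.033). In this list the copper-carrying ceruloplasmin gene Cp gave 7.44 ± 0.16 in high and 7.59 ± 0.18 in low rats (SD, n = 9 and 8), and complement C3 gave 9.88 ± 0.17 in high and 9.84 ± 0.36 in low rats. Of 10 tested genes of glutamate and GABA clearance, 9 had a higher mean in high than in low rats, with a median of 0.037, whereas Slc1a2 and Slc1a3 stood at -0.012 and -0.011 (Slc1a2 at 0.0061 after quantile normalization). Among them were the mitochondrial glutamate carrier Slc25a18 at 0.077 (SE 0.036, adjusted p = 0.680), the GABA transporter Slc6a11 at 0.066 (SE 0.038) and the GABA transaminase Abat at 0.06 (SE 0.034). Of the 8485 tested genes 4682 had a higher mean in high than in low rats.

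Of 8 tested potassium, water and endfoot genes, 3 were higher and 5 lower in high rats than in low rats. The potassium channel subunit Kcnj16 stood 0.17 above control in high rats (adjusted p = 0.991), and its partner Kcnj10 0.036 above. Of 35 other astrocyte identity genes, 28 had a lower mean in high than in low rats, with a median of only -0.019. The metal-binding protein gene Mt2A averaged 13.04 ± 0.10 in high and 13.15 ± 0.090 in low rats, and the nuclear factor gene Nfia 12.02 ± 0.027 in high and 12.07 ± 0.045 in low rats (SD, n = 9 and 8); both differences had an adjusted p of at least 0.674. Of 21 genes of glycolysis, glycogen and lactate, 16 were higher in high than in low rats (median 0.028), with the muscle-type glycogen phosphorylase Pygm at -0.12 and glycogen synthase Gys1 at 0.076. Of 16 tested relatives of the 10 genes, 12 had a higher mean in high than in low rats, among them the neuronal filament gene Ina at 0.10 (SE 0.034, adjusted p = 0.674).

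Among markers of other cells, most of the endothelial and mural list had lower means in high rats, with 0 genes called. Of its 13 tested genes 11 had a lower mean in high than in low rats (44.8% over all tested genes) and 12 a lower mean in high than in control rats (49.4%), with medians of -0.072 and -0.079. At an unadjusted p under 0.05, 4 of the 13 were lower in high than in low rats, against 2.72% of all tested genes, and 5 lower in high than in control rats, against 2.45%. Its mean level ranged between 8.28 and 8.43 in low rats, 8.31 and 8.43 in control rats, and 8.27 and 8.35 in high rats. The pericyte gene Rgs5, which had the smallest F-test p of the list, stood at 9.91 ± 0.074 in high and 10.03 ± 0.10 in control rats (SD, n = 9 each). Gja1 had an r of 0.236 and Aqp4 one of 0 with the mean of this list over the 26 rats after the diet means were subtracted, and its part in the Gja1 difference was not tested. Of 8 tested hippocampal markers 7 had a lower mean in high than in low rats (median -0.047) and 7 a lower mean in high than in control rats (median -0.034). Their mean had an r of 0.436 with Gja1, and its part in that difference was not tested either. The microglial, oligodendrocyte and neuronal lists had medians of -0.027, 0.0012 and 0.017 for high minus low.

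The second question was how much the 10 genes varied between rats of one diet. The SD within diets was 0.15 for Gfap, 0.14 for Vim and 0.12 for Gjb6. Among the 500 tested genes nearest in mean level, these lay at the 99.3rd, 98.5th and 94.3rd percentile of spread. S100b lay at the 81.7th and Aqp4 at the 70th percentile, with SDs of 0.073 and 0.065. The other 5 genes lay below the middle, Slc1a2 at 40.6, Slc1a3 at 22.7, Gja1 at 15.3, Aldoc at 9.48 and Aldh1l1 at 3.89. Between the lowest and the highest of all rats Gfap differed 1.51-fold, Vim 1.51-fold and Gjb6 1.40-fold, against 1.13-fold for Gja1 and Slc1a3 and 1.14-fold for Slc1a2. The percentiles of the 10 genes thus ran from 3.89 to 99.3 and did not lie mainly above or below the middle. Aldh1l1, with the lowest percentile, was also the gene nearest to the intensity filter.

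**Figure D3:**
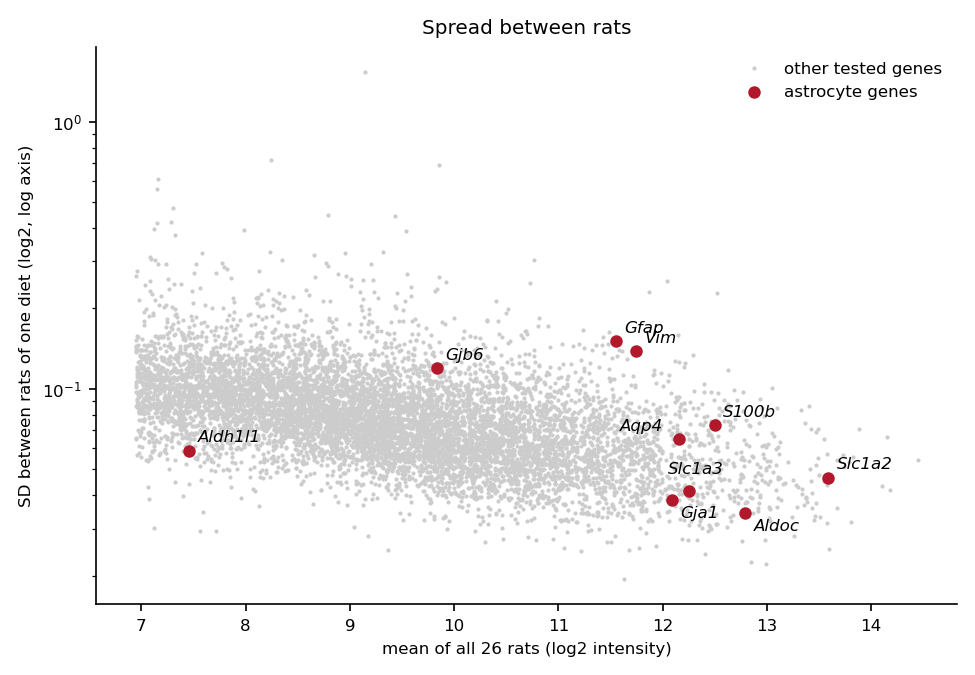
SD between rats of one diet (vertical log axis) against the mean over all 26 rats (horizontal axis, log2 intensity) for 8485 tested genes in grey, with the 10 astrocyte genes in red. Gfap, Vim and Gjb6 lie at the upper edge of the cloud; Aldh1l1, Gja1 and Aldoc lie low in it.

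The third question was whether the 10 genes rose and fell together from rat to rat. Diet means were subtracted and all 45 pairs were correlated over the 26 rats, with permutation p values from 100000 shuffles within diets and Benjamini-Hochberg adjustment over the 45 pairs. Of the 45 pairs 37 were positive and 8 negative, with a median r of 0.273. Over all 35993370 pairs of tested genes 56% were positive, with a median r of 0.0407. At an unadjusted permutation p under 0.05 there were 16 pairs, and 4 had an adjusted p under 0.05, all positive. The smallest r among these 4 was 0.586, which 1.35% of all gene pairs reached.

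Gfap and Aqp4 formed the closest pair, with r = 0.726 (permutation p = 8e-05, adjusted p = 0.0036) and Spearman's rho = 0.648 (permutation p = 0.00084, adjusted p = 0.0189). Without the 2 rats farthest from the median of Gfap r was 0.657. Leaving out each rat in turn gave 0.673 to 0.764. Within diets r was 0.953 in low, 0.666 in control and 0.404 in high rats, with exact permutation p values of 0.000521, 0.0598 and 0.299; whether these differ was not tested. Over the means of the 14 cages r was 0.810 (permutation p = 0.00607, adjusted p = 0.147), so with cages as the unit the pair no longer passed adjustment. Of the 8484 other genes, 60 were closer to Gfap than Aqp4 was, and 27 closer to Aqp4 than Gfap was.

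Gjb6 and Aldoc came next, with r = 0.628 (permutation p = 0.00186, adjusted p = 0.0298) and rho = 0.627 (permutation p = 0.00132, adjusted p = 0.0198); r was 0.596 without the 2 rats farthest out. Its adjusted permutation p was 0.0702 without high rat 18. Only 17 genes were closer to Gjb6 and 8 closer to Aldoc. Gja1 and Slc1a3 gave r = 0.586 (permutation p = 0.00201, adjusted p = 0.0298) and rho = 0.664 (permutation p = 0.00029, adjusted p = 0.0130), with 0.547 without the 2 rats farthest out. Vim and Aqp4 gave r = 0.588 (permutation p = 0.00265, adjusted p = 0.0298) and rho = 0.559 (permutation p = 0.00469, adjusted p = 0.0528), so the rank correlation did not pass. Without the 2 rats farthest out this last r was 0.385. Its adjusted permutation p was 0.112 without high rat 19, the rat lowest in Vim, and 0.0927 without control rat 14. Without low rat 3 these last 3 pairs each had an adjusted permutation p of 0.0619, and Gfap with Aqp4 was the only pair that passed. After quantile normalization Gjb6 with Aldoc and Gja1 with Slc1a3 no longer passed, each with an adjusted permutation p of 0.084, whereas both pairs of Aqp4 did. All 4 pairs were positive within each of the 3 diets. Over cage means 0 of the 45 pairs passed adjustment, 7 at an unadjusted permutation p under 0.05, and the adjusted p of these last 3 pairs was 0.147 for Gjb6 and Aldoc, 0.305 for Gja1 and Slc1a3 and 0.339 for Vim and Aqp4.

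**Figure D4:**
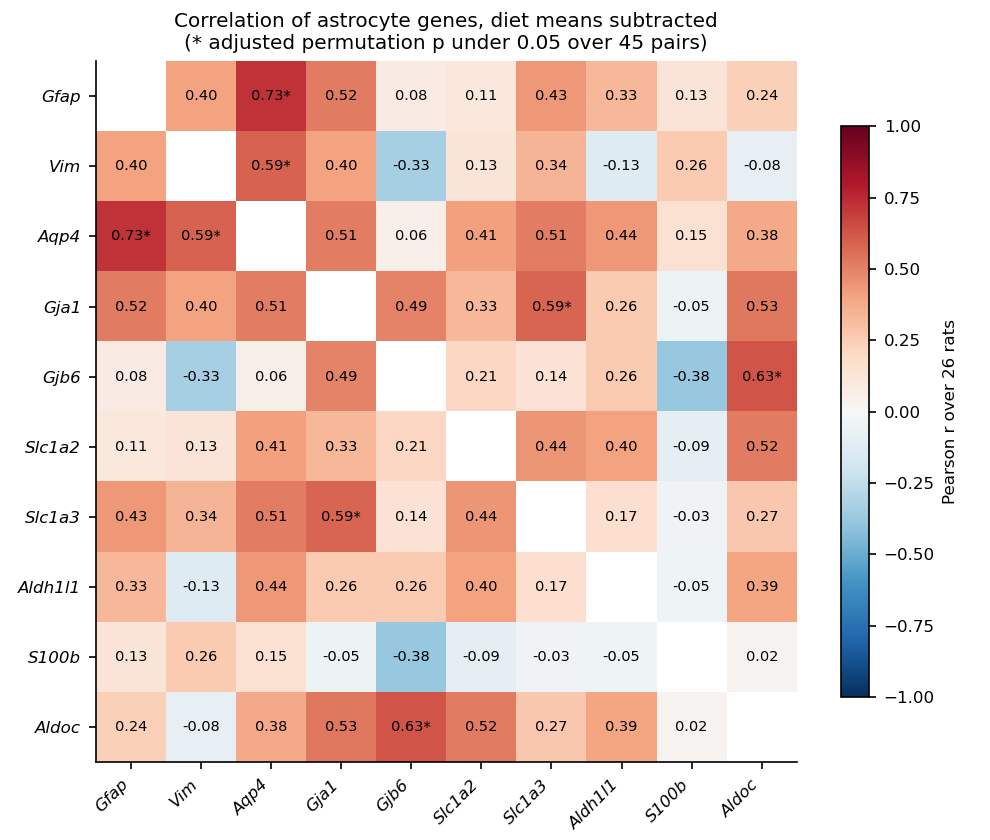
Pearson's r for each pair of the 10 astrocyte genes over 26 rats after subtracting diet means, on a colour scale from -1 (blue) to 1 (red); stars mark an adjusted permutation p under 0.05. The Gfap to Aqp4 pair has the deepest red, and the Vim to Gjb6 and Gjb6 to S100b pairs lie below 0.

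Of the pairs picked for a shared role, none passed adjustment. The connexin genes Gja1 and Gjb6 had r = 0.494 and the glutamate transporter genes Slc1a2 and Slc1a3 r = 0.444, with adjusted permutation p values of 0.0802 and 0.105. The filament genes Gfap and Vim had r = 0.403 (adjusted permutation p = 0.12). Aqp4 and Gja1 had r = 0.510 and Aldh1l1 and Aldoc r = 0.391, with adjusted permutation p values of 0.063 and 0.12. After quantile normalization r of these pairs ran from 0.220 (Slc1a2 and Slc1a3) to 0.487 (Gja1 and Gjb6). Vim and Gjb6 ran the other way, at -0.332, as did Gjb6 and S100b at -0.378; neither passed adjustment, with an adjusted permutation p of 0.195 for each.

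Aqp4 had the highest r with the mean of the other 9 genes, 0.756, followed by Gja1 at 0.715, and S100b had the lowest, -0.0056. S100b is also made by oligodendrocytes, and its r with the mean of the oligodendrocyte and myelin list was 0.345. That r was 0.697 for Vim, 0.585 for Aqp4 and 0.562 for Slc1a2, and between -0.346 (Gjb6) and 0.357 (Slc1a3) for the other 6 genes. With the mean of the neuronal list r was 0.590 for Slc1a2, 0.406 for Gjb6 and -0.412 for S100b. For the remaining genes it lay between -0.105 (Vim) and 0.287 (Gja1 and Slc1a3). The choroid plexus list, of which only Ttr and Enpp2 of 9 measured genes were tested, had the widest level of any list, 9.04 to 12.4 in control rats. The SD within diets was 1.53 for Ttr and 0.139 for Enpp2, so the list mean followed mostly Ttr. The r of this mean was 0.489 with Gfap, 0.424 with Vim, 0.370 with Aqp4, 0.490 with Gja1 and 0.334 with Slc1a3. For the other 5 genes it lay between -0.037 (S100b) and 0.176 (Slc1a2). What part these cell types have in the shared variation was not tested.

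Some rats stood out across several genes. The arrays of control rat 17 (0.474), low rat 7 (0.474) and high rat 19 (0.543) had the lowest quality weights of the 26. The part of array quality in the outlying values of these rats was not tested. Low rat 7 had the highest Gfap, 11.84, and the highest S100b, 12.72, of all rats, but the lowest Slc1a2 and Gjb6 of the low diet. Its cage mate, low rat 8, had the highest Slc1a2 and Slc1a3 of all rats and was second in Gfap and Aqp4. Without rat 7 the r of Gfap and S100b was -0.245, against 0.13 with it, so that pair takes its sign from 1 rat. Low rat 5 had the highest microglial list, 9.58 against 9.25 in the next low rat, with 10.6 for the complement gene C1qa, and its reactive astrocyte list was the highest as well, at 8.93. Its Gfap was 11.66, the 5th highest of the 26 rats, and its Vim 11.76, the 13th highest. The reactive astrocyte list includes complement C3, which had an SD of 0.36 in low rats.

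**Figure D5:**
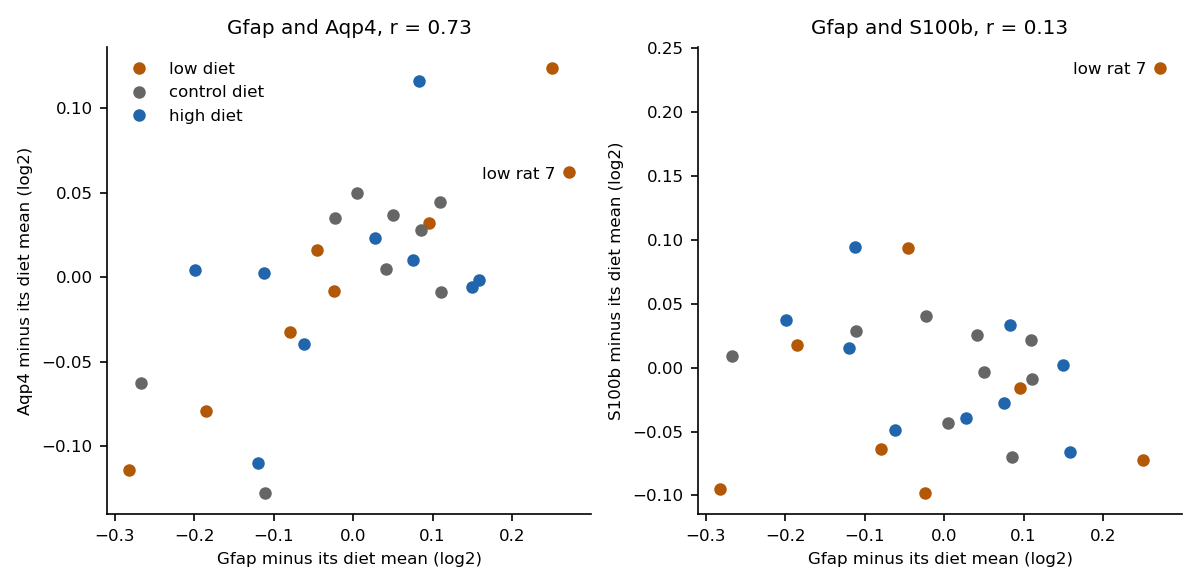
Aqp4 (left) and S100b (right) against Gfap, each as log2 intensity minus its diet mean, with 1 point for each of 26 rats coloured by diet. Aqp4 follows Gfap with r = 0.73, while the r of 0.13 for S100b depends on low rat 7.

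The genes that followed the mean z-score of the 10 most closely over the 26 rats were Apoe (r = 0.790), Gpm6b (0.782), Abhd4 (0.781), Aadat (0.780) and Fam107a (0.761). Apoe encodes the main lipid carrier of the brain, which astrocytes secrete. Of the 50 closest genes 5 were in the other astrocyte lists, Acsbg1, Apoe, Clu, Glud1 and Ntsr2, or 10%, while these lists hold 0.696% of the tested genes. The genes closest to Gfap alone were Dcaf8 (0.876), the ribosomal protein gene Rpl18 (0.860), Lgals1 (0.828), Med11 (0.822) and Cacng4 (0.821). Of 59 tested genes of the other astrocyte lists 50 had a positive r with the mean of the 10 (median 0.300). So had 13 of 13 oligodendrocyte genes (median 0.402). Over all tested genes outside the 10, 61.2% had a positive r, with a median of 0.0939. These correlations share arrays and tissue blocks and are given as a description.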

How the data were processed

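The data are a table of log2 probe set values that the authors deposited for 26 arrays. Per the submitters' processing notes the tools were Partek 6.6 and GCRMA; which step each did is not given in the sources used here. All 29214 probe sets had a value on each array, between 4.28 and 15.4. The annotation gave a single gene symbol to 15310 probe sets, several to 323 and none to 13581. Where a gene had several probe sets, that with the highest mean entered, and genes with a mean of at least 6.94, the median of all probe sets, were tested. Diet was fitted as a factor over all 26 arrays with limma (version 3.58.1, R 4.3.3), and 2-sided p values were adjusted by Benjamini-Hochberg over all tested genes. The threshold for a call was an adjusted p under 0.17. The number of arrays limits the precision, and p values treat the rats as independent. The fit was tested on simulated data.

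The 10 genes and all lists were chosen with earlier results of these data known. Besides the 10, the text names genes among the 4 of each list with the smallest F-test p, the 5 genes closest to the mean of the 10 and the 5 closest to Gfap. The markers C1qa, Ttr and Enpp2, the hippocampal markers and the 5 list genes among the 50 closest genes were named after their values were seen. Alternatives were other filters, scalings, array weights, cage as a random block, the tail mark in the model, dropping values over 2 SD from their diet mean, as the series design describes, and each rat left out in turn. For pairs this last was chosen after seeing the data. Promoter sequences are from RefSeq (GRCr8), matched by symbol for 10 of 10 genes.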

Additional observations from a re-analysis of the deposited data

Results flagged for a closer look

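In groups of 8 or 9 rats a value was singled out when its gap to the nearest rat was large against the whole range of its group (Dixon's criterion), which chance alone gives in about 1 of 20 groups. Of 69 groups 6 were singled out, 2 of them among the 30 of the 10 astrocyte genes.

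Vim in high rat 19 was 11.3968, with the next high rat at 11.6659; the hippocampal marker list of the same rat was 10.8936, below the next at 11.128. Gja1 in low rat 3 was 12.0141, with the next at 12.0813. The mean of other astrocyte identity genes in control rat 12 was 10.539, with the next at 10.584, and this rat also had the lowest Gfap. The mean of the relatives of the 10 genes in control rat 9 was 9.47635, above the next at 9.4219. The microglial marker mean in low rat 5 was 9.57891, above the next at 9.25486.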

How the results depend on the processing

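Across 40 settings 0 of the 10 genes were called in any contrast; the lowest adjusted p was 0.468 (Gja1, high minus control), with values over 2 SD from the diet mean removed. That setting called 17 genes of all in the F-test, 30 in high minus low and 15 in high minus control, against 0 in each as reported. Removing such values narrows the spread within diets that the tests use, so these counts are not on an equal footing. The stricter filter left 9 of the 10 genes. Of 30 differences 18 kept their sign throughout. Slc1a2 high minus low was 0.0061 after quantile normalization. After centring on array medians high minus control was 0.0024 for Slc1a3 and 0.0053 for Aldoc. With array weights low minus control was -0.00818 for Vim and -0.00984 for Slc1a3, and Gfap high minus low was 0.063. With values over 2 SD removed high minus control was 0.0052 for Vim, -0.0091 for Aqp4 and 0.00014 for Aldh1l1. Leaving out 1 rat at a time gave -0.033 to 0.046 for Gfap, -0.023 to 0.0020 for Slc1a2 and -0.021 to 0.0044 for Slc1a3 in high minus low. For high minus control it gave -0.064 to 0.0052 for Vim, -0.0091 to 0.021 for Aqp4, -0.0045 to 0.016 for S100b and -0.032 to 0.00014 for Aldh1l1. For low minus control it gave -0.015 to 0.044 for Vim, -0.015 to 0.011 for Slc1a3 and -0.043 to 0.0048 for S100b. The cause of these changes was not tested; all lie within the spread between rats. The count of pairs past adjustment, 4 as reported, was 2 after quantile normalization, 0 over cage means, 1 in low rats alone, 0 in control rats alone and 0 in high rats alone; fewer values enter the last 4. Leaving out 1 rat at a time, chosen after seeing the data, gave 1 (without low rat 3) to 10 pairs (without high rat 23). No paired analysis was possible because the rat numbers are not shared between diets.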
